A study of Mus musculus with 45 samples.

Results

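The genes described here act in homologous recombination, in the Fanconi anaemia pathway and in the DNA damage checkpoint, with 3 genes of mismatch and base excision repair beside them. A list of 34 genes was matched by Ensembl ID to the deposited table of gene counts from mouse liver. All 34 were among its 19966 gene IDs, and all 34 were among the 14090 genes that passed the filter on low counts. They were followed in Uhrf1hepKO livers (KO) and wild-type livers (WT) before and after partial hepatectomy, the surgical removal of most of the liver, after which the remaining hepatocytes enter the cell cycle.

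Homologous recombination repairs a broken chromosome by copying the sister chromatid. The break is sensed and its ends are resected, BRCA1, BRCA2 and PALB2 prepare the ends for strand exchange, RAD54 proteins help that exchange, and BLM and structure-specific nucleases process the joined molecules. Fanconi anaemia proteins act on DNA crosslinks and stalled forks, and ATR and CHEK1 hold the cell cycle while replication is disturbed. Many of these genes are transcribed mainly in cells that replicate their DNA, so the resting liver is known to express little of them.

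The study held 45 libraries of poly(A) RNA, 23 from KO livers and 22 from WT livers, of C57Bl/6 mice aged 8 to 12 weeks on a normal diet. KO livers, whose name states a knockout of Uhrf1 in hepatocytes, were sampled before surgery (baseline) and 24, 30, 40, 48 and 96 h, 7 days or 4 weeks after it, and WT livers at the same 8 conditions. Each of these 16 groups had 3 libraries, except KO at 7 days and WT at 30 h and 48 h, which had 2. The labels name neither the Cre driver nor the animals behind each library, so p-values measure the spread between these libraries, which may be in part technical. The deposited names of the baseline libraries hold 40hrs_b with genotype and number. Whether they share animals with the libraries of 40 h is not stated, and the tests treated baseline and 40 h as unpaired. Uhrf1 encodes the protein that brings maintenance DNA methylation to newly replicated DNA.

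Total counts lay between 12.85 and 23.13 M (mega) per library. Levels are counts scaled to library size with TMM factors (CPM), and differences are log2 values from edgeR's quasi-likelihood test with its standard error (SE). Called means a p under 0.05 after Benjamini-Hochberg adjustment across the 14090 genes. Counts at an unadjusted p under 0.05 are given below without the share of all genes at that threshold, so they cannot be set against the other genes. Uhrf1 itself averaged 12.9 ± 3.49 CPM in KO livers (SD, n = 3) and 32.3 ± 6 CPM in WT livers (SD, n = 2) at 30 h, and 5.8 ± 2.81 CPM in KO livers and 66.4 ± 39.6 CPM in WT livers at 40 h (SD, n = 3 each). Hepatocyte marker genes gave between 93400 and 102000 CPM in KO livers and between 98400 and 116000 CPM in WT livers at baseline. Kupffer cell markers summed to between 201 and 285 CPM in KO livers and between 119 and 184 CPM in WT livers at baseline. Sums of endothelial, lymphocyte, and neutrophil and monocyte markers were also higher in KO livers at baseline without overlap. In WT livers S100a8, Mpo, Camp, Ngp and Ltf of the last list were at 0. Sums of the other lists overlapped. The part of these markers in the results was not tested. The libraries labelled WT at 96 h went against their label. Bglap3, which was higher in KO livers at 30 h (log2 difference 4.04 ± 0.66, edgeR adjusted p = 0.00266), lay between 9.38 and 28.4 CPM in the WT group of 96 h and at most at 1.53 CPM in the other WT libraries. Uhrf1 averaged 1.37 ± 0.962 CPM in the KO group and 0.408 ± 0.339 CPM in the WT group of 96 h (SD, n = 3 each). Results at 96 h are therefore given for the libraries as labelled. In bulk liver, more cells that express a gene and more RNA per cell cannot be told apart.

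At baseline several of these genes were near the limit of detection in both genotypes. Exo1, a nuclease that resects DNA ends, had 0, 0.0618 and 0.0515 CPM in KO livers and 0, 0.143 and 0.0764 CPM in WT livers. Fanci, the partner of Fancd2 in the complex that is ubiquitinated at crosslinks, had 0, 0.124 and 0.103 CPM in KO livers and 0, 0 and 0.0764 CPM in WT livers. Tonsl, which with Mms22l loads recombination factors at stalled forks, stood far above them with 46.2, 43.1 and 44.3 CPM in KO livers and 58.6, 42.4 and 49.7 CPM in WT livers. On the deposited FPKM scale, which accounts for gene length, Tonsl averaged 47.0 ± 1.85 in KO livers and 46.3 ± 6.38 in WT livers at baseline, and the next gene by level, Nbn, averaged 5.67 ± 0.415 in KO livers and 4.8 ± 0.292 in WT livers (SD, n = 3 each). No gene of the 34 was called between KO and WT livers at baseline, where 0.0852% of all genes tested were called, and the count at an unadjusted p under 0.05 was 0.

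After surgery nearly all of the genes rose, and the levels at 40 h in WT livers were the highest of most of their WT time courses. Against WT baseline, 32 of 34 were called higher at 40 h and none lower, where 19.2% of all genes tested were called higher and 17.3% lower. The count was 7 of 34 at 24 h, where 10.5% of all genes were called higher, 27 of 34 at 30 h, where 9.33% were, and 29 of 34 at 48 h, where 15.6% were. The median log2 difference of the 34 genes was 1.95 at 30 h, 3.32 at 40 h and 2.79 at 48 h. The 2 genes not called at 40 h were Tonsl and Fancc.

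The largest of these changes in WT livers belonged to genes that were close to 0 before surgery. Fanci had 15.7, 9.1 and 17.0 CPM in WT livers at 40 h, against 0, 0 and 0.0764 CPM at WT baseline, a fitted log2 difference of 8.77 ± 0.7. Since 1 read in all stood at baseline, the ratio of the 2 groups was 560 with an exact 95% counting interval of 100 to 22100. Rad51ap1, which stimulates strand exchange, had 17.4, 9.6 and 19.5 CPM at 40 h, against 0.073, 0.0715 and 0 CPM at WT baseline, a ratio of 311 with an interval of 85.7 to 2570. These intervals cover counting error only. Exo1 had 9.66, 5.65 and 13.0 CPM at 40 h, against the baseline levels above, a ratio of 125 with an interval of 42.7 to 611. Ratios of group means on the deposited FPKM scale were smaller, 263 for Fanci, 156 for Rad51ap1 and 30.5 for Exo1.

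The 3 smallest differences at 40 h in WT livers were those of Tonsl, Fancc and Nbn. Tonsl had 49.1, 48.3 and 59.5 CPM in WT livers at 40 h, overlapping its WT baseline, with a log2 difference of 0.06 ± 0.1 (adjusted p = 0.701). Fancc, a core subunit of the Fanconi ubiquitin ligase, had 5.36, 4.17 and 5.11 CPM at 40 h, against 3.43, 2.43 and 4.13 CPM at WT baseline, a log2 difference of 0.55 ± 0.24 that did not pass (adjusted p = 0.0698) although the groups did not overlap. Nbn, the break-sensing subunit that binds MRE11 and RAD50, had 21.1, 21.1 and 24.3 CPM at 40 h, against 14.8, 15.1 and 15.1 CPM at WT baseline. The 2 groups of Nbn did not overlap, and its log2 difference of 0.56 ± 0.11 was called (adjusted p = 0.000106).

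In KO livers the count of genes called was at its highest at 30 h in the main test, but not in every alternative fit. Against KO baseline, 31 of 34 genes were called higher at 30 h and none lower, where 17% of all genes tested were called higher and 16.1% lower. The exceptions were Rad50, Atm and Atr. The count was 7 of 34 at 24 h, where 11.5% of all genes were called higher, 28 of 34 at 40 h, where 17.9% were, and 26 of 34 at 48 h, where 19% were. Without scaling 31 were called at 30 h (30% of all genes, in either direction) and 32 at 48 h (35.8%). With limma on log2(FPKM + 1) 30 were called at 30 h (25.3%) and 31 at 48 h (32%). The median log2 difference was 2.59 at 30 h, 2.60 at 40 h and 2.53 at 48 h. In KO livers the highest group mean fell at 30 h for 12 genes, at 40 h for 17 and at 48 h for 5. In WT livers it fell at 30 h for 2 (Tonsl and Ung), at 40 h for 30 and at 48 h for Fancc. For Nbn the WT group of 96 h, taken as labelled, had the highest mean (22.2 CPM), and 40 h came next (22.1 CPM).

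**Figure D1:**
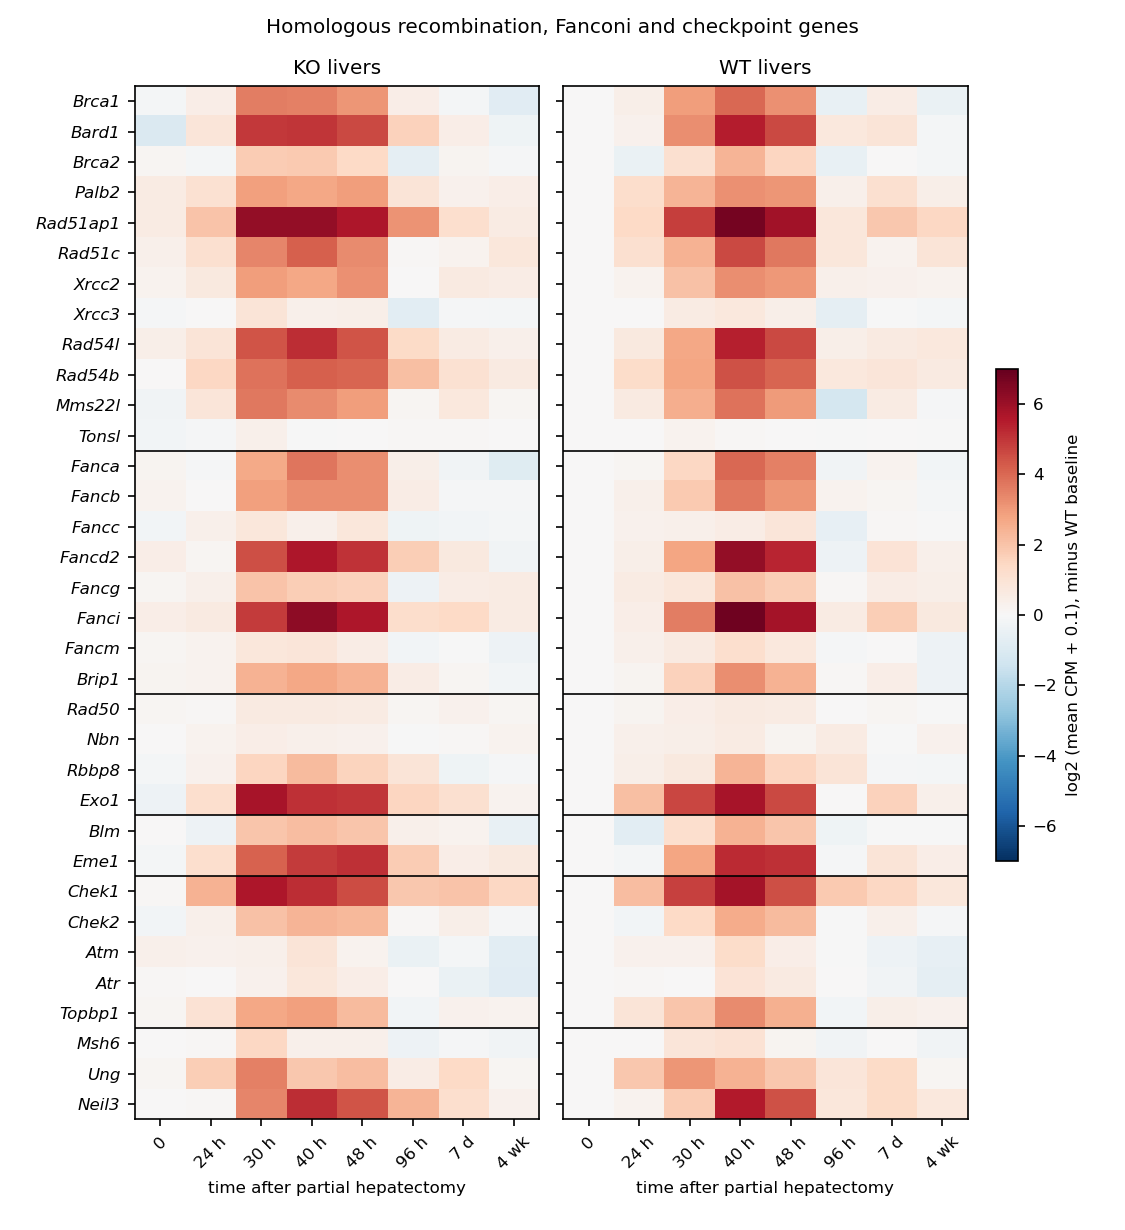
Mean level of the 34 genes (rows, grouped by role between black lines) at the 8 conditions (columns) in KO livers (left) and WT livers (right), as log2(mean CPM + 0.1) minus the WT baseline. Rows such as Tonsl, Fancc, Rad50 and Nbn stay pale, and most of the others are darkest at 40 h in WT livers and nearly as dark at 30 h as at 40 h in KO livers.

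Leaving 96 h aside, every call between the genotypes fell at 30 h. KO livers were called higher for 7 of the 34 genes, Rad54l, Neil3, Bard1, Fancg, Fancd2, Fancb and Topbp1, where 0.873% of all genes tested were called higher. None was called lower, where 0.0639% of all genes were. The log2 difference was above 0 for all 34 genes, against 51.3% of all genes tested, and its median was 0.85, against 0.01 over all genes. Every KO library lay above every WT library for 25 of 34 genes, against 15.4% of all genes tested. Without adjustment 23 of 34 had a p under 0.05. WT livers had 2 libraries at 30 h, and the 7 calls rest on few libraries: without WT replicate 3 none of the 34 passed, without WT replicate 2 1 passed, without KO replicate 3 1 passed and without KO replicate 2 3 passed, with a lone WT library assumed to vary like the other groups. The median difference of the 34 genes then lay between 0.76 and 0.92.

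Promoter sequences of 6 of these 7 genes are shown because they let a reader compare what lies next to the start sites of genes that were higher together. They are RefSeq sequences of build GRCm38.p6, 250 bases before to 50 bases after the start, written 5′ to 3′ on the gene's strand. Capitals mark matches, on either strand, to the E2F motif (TTTCCCGC, TTTCGCGC, TTTGCCGC or TTTGGCGC), the CHR motif (TTTGAA) or CCAAT. The motif letters do not overlap one another.
Rad54l (chr4:116123640-116123939, minus strand): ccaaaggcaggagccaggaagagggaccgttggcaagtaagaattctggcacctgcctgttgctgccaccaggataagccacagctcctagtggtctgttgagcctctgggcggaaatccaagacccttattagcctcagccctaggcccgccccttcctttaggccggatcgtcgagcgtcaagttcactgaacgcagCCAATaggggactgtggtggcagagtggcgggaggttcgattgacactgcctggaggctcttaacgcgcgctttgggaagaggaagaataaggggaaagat
Neil3 (chr8:53639016-53639315, minus strand): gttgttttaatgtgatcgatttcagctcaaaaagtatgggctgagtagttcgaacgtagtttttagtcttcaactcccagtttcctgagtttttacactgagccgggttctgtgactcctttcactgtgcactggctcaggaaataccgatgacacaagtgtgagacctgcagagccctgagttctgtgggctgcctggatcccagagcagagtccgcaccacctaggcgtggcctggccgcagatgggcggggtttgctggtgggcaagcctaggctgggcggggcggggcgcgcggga
Bard1 (chr1:71102923-71103222, minus strand): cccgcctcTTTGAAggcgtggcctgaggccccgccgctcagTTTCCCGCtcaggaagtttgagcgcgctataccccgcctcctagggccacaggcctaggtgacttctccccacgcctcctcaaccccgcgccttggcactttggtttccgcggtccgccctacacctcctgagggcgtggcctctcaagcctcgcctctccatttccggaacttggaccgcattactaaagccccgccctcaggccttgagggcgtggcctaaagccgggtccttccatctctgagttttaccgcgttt
Fancg (chr4:43010252-43010551, minus strand): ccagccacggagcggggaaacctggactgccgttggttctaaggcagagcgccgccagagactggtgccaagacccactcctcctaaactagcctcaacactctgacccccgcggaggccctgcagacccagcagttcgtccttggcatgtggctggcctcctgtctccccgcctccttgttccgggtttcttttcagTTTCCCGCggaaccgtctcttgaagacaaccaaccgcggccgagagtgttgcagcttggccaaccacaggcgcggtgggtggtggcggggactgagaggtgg
Fancb (chrX:164980342-164980641, plus strand): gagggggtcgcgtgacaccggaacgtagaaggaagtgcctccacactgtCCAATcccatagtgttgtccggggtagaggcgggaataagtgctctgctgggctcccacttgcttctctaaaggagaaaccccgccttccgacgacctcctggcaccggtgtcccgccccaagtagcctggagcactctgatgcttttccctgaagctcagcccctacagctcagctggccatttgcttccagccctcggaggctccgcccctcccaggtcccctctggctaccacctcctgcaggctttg
Topbp1 (chr9:103305077-103305376, plus strand): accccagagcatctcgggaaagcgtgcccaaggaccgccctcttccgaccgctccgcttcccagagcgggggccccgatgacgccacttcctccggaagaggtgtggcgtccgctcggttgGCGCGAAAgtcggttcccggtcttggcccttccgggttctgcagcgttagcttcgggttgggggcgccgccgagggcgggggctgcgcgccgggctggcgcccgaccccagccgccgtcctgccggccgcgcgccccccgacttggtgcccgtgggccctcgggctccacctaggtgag

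An E2F match stood in the promoters of Bard1, Fancg and Topbp1, a CCAAT in those of Rad54l and Fancb, a CHR in that of Bard1 alone, and none of these letters in the window of Neil3. Of the 34 genes, 26 had an entry in the table, with 28 entries in all. An E2F match was in 28.6% of these entries, in 3.76% of the 13504 entries of genes tested and in 2.26% of all 32851 entries. CCAAT was in 53.6% of the entries, in 37.8% of those of genes tested and in 37.4% of all, and CHR was in 7.14% of the entries, in 12.6% of those of genes tested and in 17.9% of all. A match is a description of the letters and not of bound protein.

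Among the genes of strand exchange and its mediators, Rad54l and Bard1 were called at 30 h. Rad54l, on chromosome 4 from 116094264 to 116123690, encodes a motor protein that remodels DNA during strand exchange. It had 4.65, 7.57 and 6.35 CPM in KO livers, against 2.17 and 1.51 CPM in WT livers, and the groups did not overlap. Its log2 difference was 1.75 ± 0.35 (edgeR adjusted p = 0.00942). The fold was smaller on the deposited FPKM scale, where Rad54l averaged 3.94 ± 0.22 in KO livers (SD, n = 3) and 2.29 ± 0.053 in WT livers (SD, n = 2), 1.72-fold against 3.36-fold on the CPM scale. On that scale its baseline was already 2.09 ± 0.051 in KO livers and 1.88 ± 0.275 in WT livers (SD, n = 3 each), although its CPM at baseline were at most 0.422. Bard1, the ubiquitin ligase partner of Brca1, had 7.09, 7.24 and 10.6 CPM in KO livers, against 2.82 and 2.12 CPM in WT livers. Its lowest KO library was above both WT libraries, and its log2 difference was 1.76 ± 0.38 (edgeR adjusted p = 0.0162). The other 10 genes of this group had log2 differences between 0.08 for Tonsl and 1.33 for Rad51ap1, and none passed. Mms22l, the partner of Tonsl, was nearest, with 20.4, 25 and 27.9 CPM in KO livers and 12.4 and 9.21 CPM in WT livers (log2 difference 1.18 ± 0.34, edgeR adjusted p = 0.0887). Brca1, which with Bard1 promotes end resection, had 19.3, 23.0 and 27.9 CPM in KO livers and 18 and 11.8 CPM in WT livers (log2 difference 0.66 ± 0.31, edgeR adjusted p = 0.428).

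Of the 8 Fanconi genes, 3 were called at 30 h. Fancg, a core complex subunit, had 7.74, 10.3 and 8.35 CPM in KO livers, against 4.1 and 3.57 CPM in WT livers (log2 difference 1.2 ± 0.27, edgeR adjusted p = 0.0238). On the FPKM scale the fold of Fancg was larger, 3.44 against 2.29 on the CPM scale. Fancd2, which is ubiquitinated with Fanci at crosslinks, had 5.59, 6.12 and 6.64 CPM in KO livers, against 2.49 and 1.03 CPM in WT livers. Its KO libraries lay close together and above both WT libraries, with a log2 difference of 1.83 ± 0.43 (edgeR adjusted p = 0.0274). Fancb, an X-linked core subunit, had 5.07, 7.9 and 6.17 CPM in KO livers, against 3.54 and 2.67 CPM in WT livers (log2 difference 1.04 ± 0.26, edgeR adjusted p = 0.0381). Fanca, another core subunit, fell just outside the threshold with 6.57, 7.51 and 6.0 CPM in KO livers and 3.62 and 1.94 CPM in WT livers (log2 difference 1.29 ± 0.35, edgeR adjusted p = 0.0627). Fancm, the translocase that carries the core complex to DNA, overlapped between the genotypes, with 7.04, 7.9 and 6.52 CPM in KO livers and 5.31 and 7.51 CPM in WT livers.

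The break-sensing genes Rad50 and Nbn had small differences, with ratios of mean CPM in KO over WT livers of 1.09 and 1.07. The ratios of the end resection genes Exo1 and Rbbp8 were larger, 2.15 and 1.83. Rad50 had 12.3, 10.5 and 12.8 CPM in KO livers and 9.33 and 12.5 CPM in WT livers at 30 h, and its ranges overlapped, as did those of Nbn. Exo1 had 7.84, 9.55 and 10.6 CPM in KO livers and 4.51 and 4.18 CPM in WT livers, and Rbbp8, the CtIP protein that starts resection, had 13.6, 15.3 and 13.5 CPM in KO livers and 8.05 and 7.33 CPM in WT livers. Neither Exo1 (edgeR adjusted p = 0.233) nor Rbbp8 (edgeR adjusted p = 0.216) passed, although their groups did not overlap. Both genes of junction processing were also apart between the genotypes without passing. Blm, the Bloom helicase, had 8.82, 10.5 and 10.9 CPM in KO livers and 6.12 and 5.69 CPM in WT livers (edgeR adjusted p = 0.261). Eme1, a subunit of the MUS81 nuclease, had 2.11, 2.5 and 2.76 CPM in KO livers and 1.21 and 0.606 CPM in WT livers (edgeR adjusted p = 0.155).

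Of the 5 checkpoint genes, Topbp1, the activator of ATR, was called at 30 h. It had 54.4, 63.0 and 54.4 CPM in KO livers, against 36.6 and 30.7 CPM in WT livers (log2 difference 0.77 ± 0.2, edgeR adjusted p = 0.0492). With limma on log2(FPKM + 0.1) Topbp1 did not pass (adjusted p = 0.125). Chek1, the kinase downstream of ATR, had 14.6, 17.6 and 19.6 CPM in KO livers and 11.4 and 7.51 CPM in WT livers (edgeR adjusted p = 0.451). Atm and Atr, the apical kinases, had log2 differences of 0.09 ± 0.31 and 0.26 ± 0.19 and did not pass. Among the mismatch and base excision genes, Neil3, a glycosylase that also unhooks crosslinks, was called. Neil3 had 1.83, 2.31 and 2.82 CPM in KO livers, against 0.885 and 0.424 CPM in WT livers (log2 difference 1.85 ± 0.38, edgeR adjusted p = 0.0135). Ung, which removes uracil from DNA, had 34.7, 51.2 and 55.7 CPM in KO livers and 39.0 and 30.3 CPM in WT livers. The lowest KO library of Ung lay between the WT libraries, and the difference did not pass (edgeR adjusted p = 0.752).

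**Figure D2:**
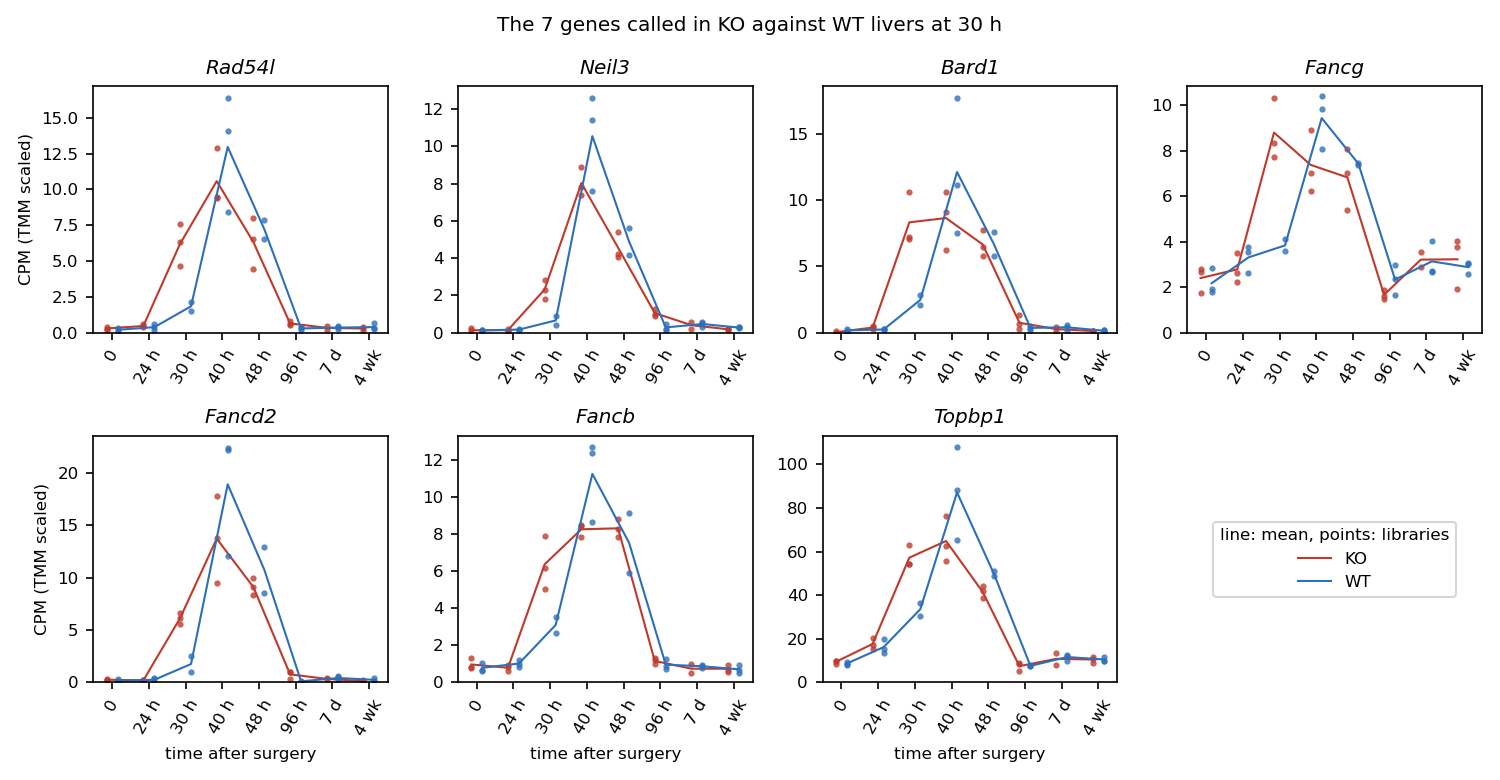
CPM (y axis, linear) of the 7 genes called at 30 h at each condition (x axis, evenly spaced), with KO libraries as red points left of WT libraries as blue points and lines through the group means. At 30 h every KO point is above every WT point in each panel, and at 40 h the WT mean is above the KO mean.

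Other genes that move with the cell cycle differed in the same samples. At 30 h 11 of 28 S-phase genes, among them none of the 34, were called higher in KO livers with a median log2 difference of 1.06, and 13 of 24 mitosis genes were, with a median of 1.82. The 34 genes together summed to between 449 and 526 CPM in KO livers, against 304 and 353 CPM in WT livers. Neutrophil and monocyte markers, 9 of 10 with counts in each genotype and Camp at 0 in both, summed to between 3.1 and 8.99 CPM in KO livers and between 10.7 and 12.6 CPM in WT livers. Erythroid markers, 7 of 7 with counts in each genotype, summed to between 214 and 240 CPM in KO livers and between 92.5 and 172 CPM in WT livers, higher in KO livers without overlap, as the sum of the 34 genes was. The sums of the other marker lists overlapped between the genotypes. The part of these genes and markers in the result was not tested.

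**Figure D3:**
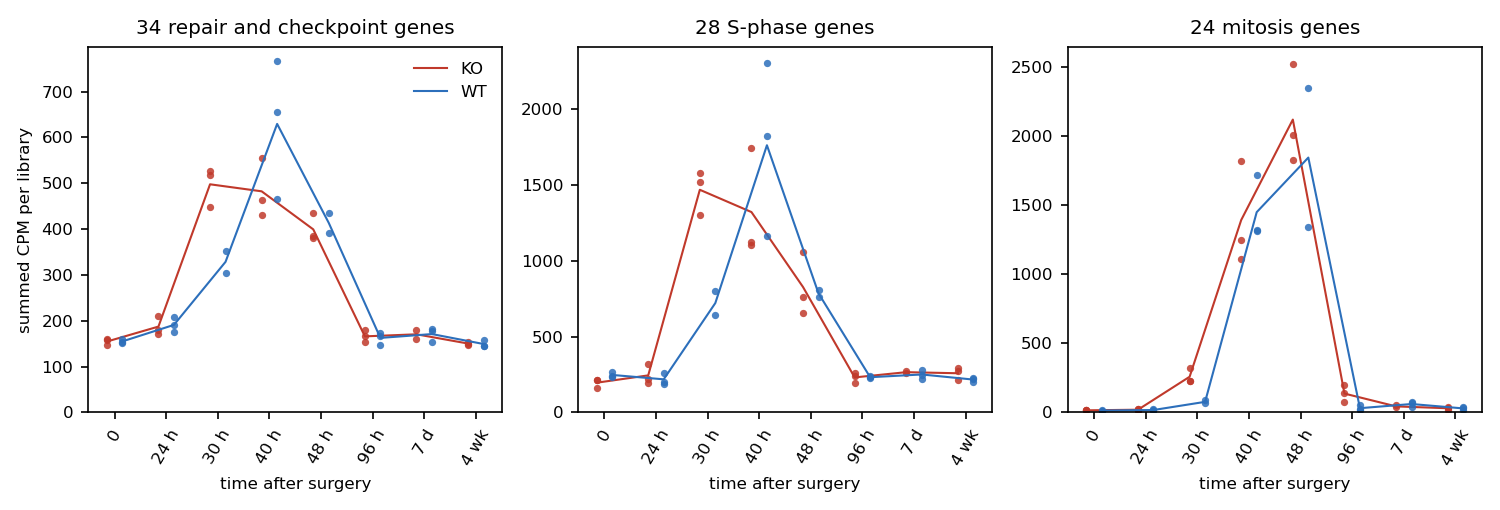
Summed CPM per library (y axes, linear) of the 34 repair and checkpoint genes, 28 S-phase genes and 24 mitosis genes at each condition (x axis, evenly spaced), with KO in red left of WT in blue and lines through the group means. The 34 genes and the S-phase genes stand higher in KO livers than in WT livers at 30 h and are spread widely at 40 h.

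Genes of the same pathways outside the 34 were called at 30 h at about the share of all genes, of which 0.873% were called higher. Of 31 other homologous recombination genes 1 was called, Rpa1, a subunit of the single-strand binding protein RPA, with a log2 difference of 0.81 ± 0.15 (edgeR adjusted p = 0.00478). None of 18 other Fanconi genes, 26 other checkpoint genes, 6 other mismatch repair genes, 18 other base excision genes and 10 end-joining genes was called, and 5, 8, 0, 3 and 1 of them had an unadjusted p under 0.05. The unadjusted count of the other homologous recombination genes is not given here. The median log2 difference was positive in every list, so the low share of calls does not mean an absence of shift. It was 0.29 for homologous recombination, 0.16 for Fanconi, 0.41 for checkpoint, 0.06 for mismatch repair, 0.11 for base excision and 0.13 for end joining. In WT livers at 40 h against WT baseline, where 19.2% of all genes were called higher and 17.3% lower, 20 of the 31 homologous recombination genes were called higher and 2 lower, 7 of 18 Fanconi genes higher and 1 lower, 17 of 26 checkpoint genes higher and none lower, and 2 of 10 end-joining genes higher and 2 lower, which is near the share of all genes.

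At 40 h the sign of the genotype difference was turned round. The log2 difference was below 0 for all 34 genes, against 55.9% of all genes tested, with a median of -0.41, but none was called, where 0.142% of all genes were called, and 5 had an unadjusted p under 0.05. Every KO library lay below every WT library for 5 of 34 genes (Xrcc2, Fancb, Nbn, Eme1 and Atm), against 6.45% of all genes tested. The WT libraries were spread widely at 40 h. Topbp1 had 55.9, 76.3 and 62.5 CPM in KO livers and 88.4, 65.2 and 108 CPM in WT livers, Brca1 had 17.9, 28.4 and 20.1 CPM in KO livers and 33.8, 17.5 and 44.8 CPM in WT livers, and both pairs of groups overlapped. WT replicate 2 was the lowest of the 3 WT libraries for each of these genes. Erythroid marker sums also changed order between the genotypes: the 7 markers summed to between 172 and 235 CPM in KO livers, against 260 to 326 CPM in WT livers, at 40 h. Neutrophil and monocyte markers were the other way round, with sums between 16.4 and 21.2 CPM in KO livers (Camp at 0), against 8.72 to 12.3 CPM in WT livers (Mpo and Camp at 0). Neither list overlapped between the genotypes at 40 h, the other lists did, and their part in the result was not tested.

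**Figure D4:**
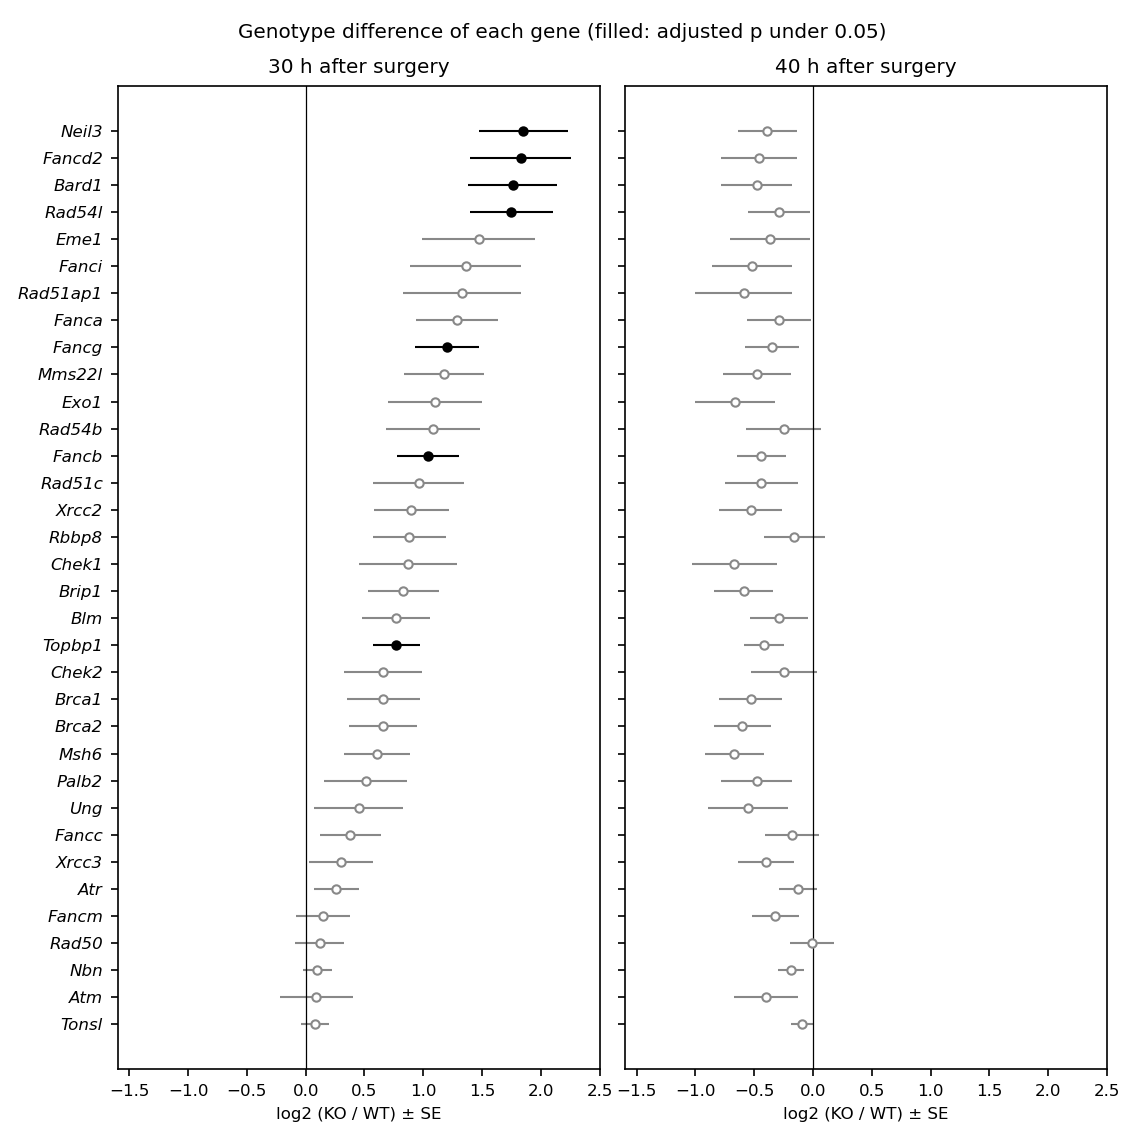
Log2 ratio of KO over WT (x axis, with bars of ± 1 SE from edgeR) for each of the 34 genes (rows, in order of the value at 30 h) at 30 h (left) and 40 h (right); filled points were called. All points are right of 0 at 30 h and left of 0 at 40 h, and the 7 filled points are all at 30 h.

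The change in the genotype difference between these times was tested directly, as the step between 30 h and 40 h in KO livers minus that in WT livers. It was below 0 for all 34 genes, against 53.4% of all genes tested, with a median of -1.30, and was called for 7 of 34, where 0.554% of all genes tested were called lower. They were the same 7 genes, Neil3 (-2.25 ± 0.46, edgeR adjusted p = 0.0178), Bard1 (-2.24 ± 0.48, edgeR adjusted p = 0.0231), Rad54l (-2.05 ± 0.44, edgeR adjusted p = 0.0231), Topbp1 (-1.19 ± 0.26, edgeR adjusted p = 0.0254), Fancb (-1.48 ± 0.33, edgeR adjusted p = 0.0275), Fancg (-1.55 ± 0.35, edgeR adjusted p = 0.0277) and Fancd2 (-2.29 ± 0.54, edgeR adjusted p = 0.0321). The test shares the libraries of 30 h with the comparison above, and it was chosen with earlier results of these data known. With limma on log2(FPKM + 1) the step of Rad54l was -0.71 and did not pass (adjusted p = 0.0553), while those of the other 6 passed, and on log2(FPKM + 0.1) only those of Bard1 and Neil3 passed among the 7. The ratio of the mean at 40 h to the mean at 30 h had a median of 1.04 in KO livers, from 0.322 to 3.46, and of 2.42 in WT livers, from 0.644 to 16.1. Neil3 averaged 8.02 ± 0.783 CPM in KO livers and 10.5 ± 2.6 CPM in WT livers at 40 h (SD, n = 3 each). The number of calls in this step depended on single libraries, with 0 calls without KO replicate 3 or WT replicate 3 of 30 h or without KO replicate 1, WT replicate 1 or WT replicate 3 of 40 h, 2 without KO replicate 2 of 30 h, and 15 without WT replicate 2 of 40 h.

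Over the whole time course, a joint test of the 7 contrasts that compare the genotypes' changes from baseline called Neil3 (edgeR adjusted p = 0.0167) and Fancd2 (edgeR adjusted p = 0.0424), where 1.41% of all genes tested were called. Bard1 (0.0569), Nbn (0.0787) and Rad54l (0.0832) had the next smallest edgeR adjusted p-values and did not pass. This test uses the libraries of 96 h. Without them none of the 34 passed, where 0.0214% of all genes tested were called, and 17 had an unadjusted p under 0.05.

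Differences were not detected at the other times. None of the 34 was called between KO and WT livers at 24 h, 48 h, 7 days or 4 weeks, and the counts at an unadjusted p under 0.05 were 1, 0, 0 and 0. DESeq2 and limma on either FPKM scale also called 0 of the 34 at these times, at baseline and at 40 h. The background at these times was 0.0426%, 0.135%, 0.135% and 0.22% of all genes tested. At 48 h the 34 genes summed to between 380 and 434 CPM in KO livers and between 391 and 436 CPM in WT livers. Fancd2 averaged 9.09 ± 0.811 CPM in KO livers (SD, n = 3) and 10.7 ± 3.07 CPM in WT livers (SD, n = 2) at 48 h.

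At 96 h, 7 of 34 genes were called between the libraries as labelled, 6 higher and 1 lower in those labelled KO, where 7.22% of all genes were called higher and 7.08% lower. The 6 genes called higher were all at or below 2.87 CPM in every library of 96 h. Fancd2 had 0.36, 0.975 and 1.0 CPM in the libraries labelled KO, against 0.183, 0.0742 and 0.0709 CPM in those labelled WT (log2 difference 2.75 ± 0.72, edgeR adjusted p = 0.00939). Neil3 had 0.901, 0.975 and 1.27 CPM in the libraries labelled KO, against 0.487, 0.148 and 0.213 CPM in those labelled WT (1.82 ± 0.41, edgeR adjusted p = 0.00311). Eme1 had 0.18, 0.26 and 0.802 CPM in the libraries labelled KO, against 0.122, 0 and 0 CPM in those labelled WT, a ratio of 9.55 with an exact 95% counting interval of 2.29 to 84.9. The groups did not overlap for these genes on the CPM scale. On the deposited FPKM scale Eme1 lay between 0.663 and 0.895 in libraries labelled KO and between 0.392 and 1.21 in those labelled WT. Fancd2 also overlapped between the labels on that scale, and Neil3 did not.

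Rad51ap1 had 0.36, 1.69 and 1.54 CPM in the libraries labelled KO, against 0.244, 0.223 and 0 CPM in those labelled WT (log2 difference 2.91 ± 0.8, edgeR adjusted p = 0.0133). Rad54b, a relative of Rad54l, had 1.35, 1.5 and 2.61 CPM in the libraries labelled KO, against 0.731, 0.445 and 0.78 CPM in those labelled WT (1.47 ± 0.45, edgeR adjusted p = 0.0259). Mms22l had 0.81, 2.21 and 2.87 CPM in the libraries labelled KO, against 1.04, 0.52 and 0.568 CPM in those labelled WT (1.48 ± 0.45, edgeR adjusted p = 0.0253). The libraries of Mms22l overlapped between the labels, with the first labelled KO below the first labelled WT. Nbn had 13.2, 13.6 and 17.2 CPM in the libraries labelled KO, against 22.2, 24.5 and 19.9 CPM in those labelled WT (-0.6 ± 0.11, edgeR adjusted p = 0.000481), and every library labelled KO was lower. When the libraries of 96 h were fitted alone, none of the 34 passed, where 1.66% of all genes tested were called. In that fit 9 of the 34 were not tested, among them Rad51ap1, Fancd2, Eme1 and Neil3, which the main test had called.

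**Figure D5:**
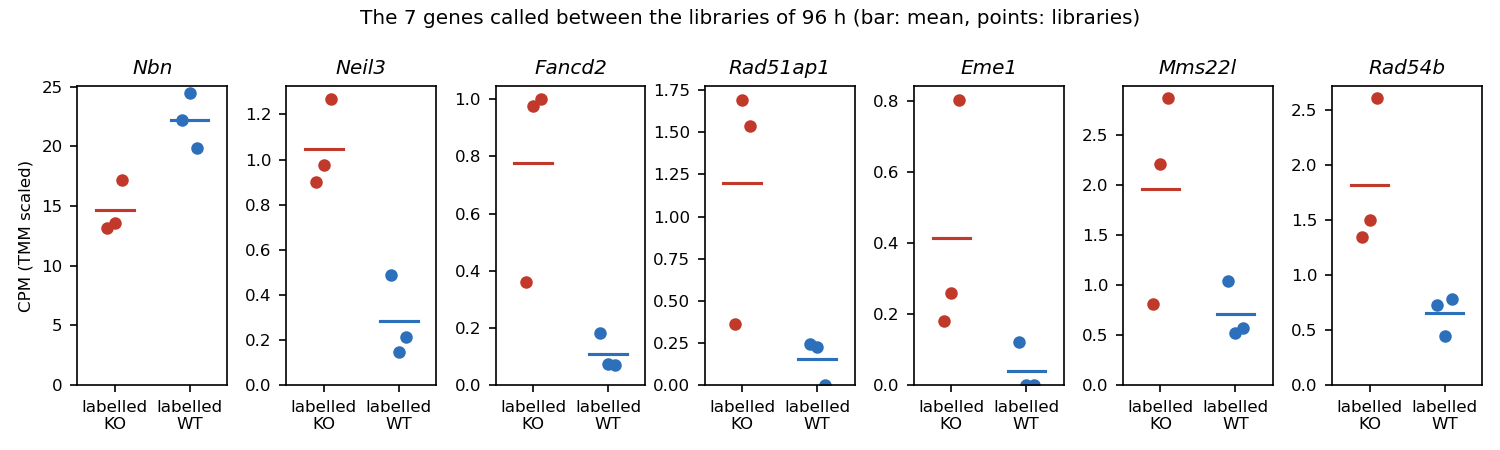
CPM (y axes, linear, each panel on its own scale) of the 7 genes called at 96 h in the 3 libraries labelled KO (red, left) and the 3 labelled WT (blue, right), with bars at the means. The 6 genes other than Nbn lie at or below 2.87 CPM in all 6 libraries, and Nbn is lower in all 3 libraries labelled KO.

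Several marker sums moved with these labels at 96 h. Hepatocyte markers, 10 of 10 with counts, summed to between 205000 and 352000 CPM in the libraries labelled KO, against 108000 to 177000 CPM in those labelled WT. Kupffer cell markers, 9 of 9 with counts, summed to between 433 and 776 CPM in the libraries labelled KO, against 255 to 355 CPM in those labelled WT. Neutrophil and monocyte markers summed to between 32 and 85.1 CPM in the libraries labelled KO, with 10 of 10 detected, and between 2.67 and 4.57 CPM in those labelled WT, with Mpo, Camp and Ltf at 0. Lymphocyte markers, 11 of 11 with counts, summed to between 5.4 and 7.67 CPM in the libraries labelled KO, against 3.83 to 4.87 CPM in those labelled WT. Exocrine pancreas markers, 2 of 2 with counts, went the other way. They summed to between 10.9 and 28.7 CPM in the libraries labelled KO, against 29.5 to 32.7 CPM in those labelled WT. The sums of the other marker lists overlapped between the labels. All 24 mitosis genes were called higher in the libraries labelled KO, with a median log2 difference of 2.27. Their part in the result was not tested.

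Fewer of the genes were called at the late times. Against their own baseline, 10 of 34 genes were called higher and 3 lower in libraries labelled KO at 96 h, where 21.9% of all genes were called higher and 22.1% lower, and 3 were higher and 1 lower in those labelled WT, where 12.8% were called higher and 14.6% lower. At 7 days Ung was called higher in WT livers (log2 difference 1.35 ± 0.39, edgeR adjusted p = 0.0467), where 2.25% of all genes were called higher, and none of the 34 was called in KO livers, where 5.56% of all genes were called and 8 of the 34 had an unadjusted p under 0.05. At 4 weeks Atm and Atr were called lower in KO livers, where 4.28% of all genes were called lower. Atr had 6.96, 6.92 and 7.09 CPM at 4 weeks, against 15.4, 12.4 and 11.1 CPM at KO baseline (log2 difference -0.89 ± 0.17, edgeR adjusted p = 0.00254). Atm had 3.94, 4.31 and 4.23 CPM at 4 weeks, against 8.65, 7.23 and 10.3 CPM at KO baseline (log2 difference -1.07 ± 0.29, edgeR adjusted p = 0.0204). In WT livers Atr had 8.06, 7.77 and 7.94 CPM at 4 weeks, against 11, 11.6 and 14.0 CPM at WT baseline, and was not called (log2 difference -0.62 ± 0.17, edgeR adjusted p = 0.0673). Whether the change of Atr differed between the genotypes was not tested by itself.

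The order of levels among the genes changed as they rose. On the deposited FPKM scale, means in WT livers at 40 h ran from 48.8 ± 2.16 for Tonsl through 21.2 ± 6.01 for Topbp1, 10.9 ± 3.69 for Rad51ap1 and 10.8 ± 4.03 for Ung to 1.06 ± 0.209 for Fancm (SD, n = 3). Rad51ap1 and Ung differed by less than their spread. In KO livers at 30 h they ran from 58.7 ± 4.92 for Tonsl through 22.7 ± 5.01 for Ung and 15.5 ± 2.31 for Topbp1 to 0.827 ± 0.113 for Fancm (SD, n = 3). Fanca had no row on this scale. The strand setting of the counting is not given in the sources used here, so values are uncertain for genes whose exons overlap another gene: 35.8% of the exon bases of Rad54b are shared with Fsbp, 16% of Fanci with Polg, 15.4% of Rad54l with Lrrc41, 10.5% of Fanca with Zfp276 and 8.0% of Eme1 with Lrrc59.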

How the data were processed

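Poly(A) RNA of 45 mouse liver libraries was grouped by genotype and time from the sample titles. The authors deposited whole-number counts per gene, the input of all main tests, and a table of FPKM values (fragments scaled by transcript length and library size), used for levels between genes and for alternative fits. The submitters' processing notes name FastQC 0.11.5, Trimmomatic, TopHat2 2.1.0, Cufflinks 2.2.1, HTSeq and DESeq2 with build mm10; the strand setting and annotation were not given in the sources used here. Counts (12.85 to 23.13 M per library) were filtered with filterByExpr (14090 of 19966 genes), TMM scaled and fitted in R 4.3.3 with edgeR 4.0.16 (robust glmQLFit, then glmQLFTest), a mean per group for the 16 groups over all 45 libraries (29 residual degrees of freedom), after a test on simulated data. The SE came from the log2 difference and its F statistic. Alternatives used DESeq2 1.42.0, limma 3.58.1 on log2(FPKM + 0.1) or log2(FPKM + 1), other scalings and filters, and left-out libraries.

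The 34 genes, the lists and the test of the step between 30 h and 40 h were chosen with earlier results of these data known. Genes given in every library were those called between KO and WT livers, the 5 with the smallest joint p, and the 3 largest and 3 smallest changes of WT livers at 40 h; the other values illustrate a role and were chosen after their values were seen. Positions come from GENCODE vM21 on GRCm38. Erythroid sums use 7 markers; 1 further gene of that list is not reported here.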

Additional observations from a re-analysis of the deposited data

Results flagged for a closer look

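The genotype difference at 40 h minus that at 30 h differed from 0 by edgeR's test of that difference for 7 genes. Its log2 value was -2.29 for Fancd2 (edgeR adjusted p = 0.0321), -2.25 for Neil3 (edgeR adjusted p = 0.0178), -2.24 for Bard1 (edgeR adjusted p = 0.0231), -2.05 for Rad54l (edgeR adjusted p = 0.0231), -1.55 for Fancg (edgeR adjusted p = 0.0277), -1.48 for Fancb (edgeR adjusted p = 0.0275) and -1.19 for Topbp1 (edgeR adjusted p = 0.0254). The time courses of the genotypes differed in the joint test for Neil3 (edgeR adjusted p = 0.0167) and Fancd2 (edgeR adjusted p = 0.0424). For each of the 7 genes the KO libraries were above both WT libraries at 30 h, and the KO mean was below the WT mean at 40 h.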

How the results depend on the processing

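Of the 21 single-gene calls named at 30 h, at 96 h and in the step, none reversed; 29 of 171 alternative fits and 79 of 154 fits with 1 library left out ended a call. In the counts of DESeq2, limma and the other alternative fits that follow, the percent in parentheses is the share of all genes that the same fit called. With DESeq2, 11 of the 34 genes were called between KO and WT livers at 30 h (1.7%), 15 in the step between 30 h and 40 h (1.78%), 11 in the joint test (4.79%), 2 in KO livers at 7 days (8%) and 1 in WT livers at 4 weeks (2.28%). With limma on log2(FPKM + 1) these counts were 13 at 30 h (1.71%) and 16 in the step (1.29%), with 1 at 96 h (6.62%), and against baseline 2 in KO at 24 h (17.2%), 6 in KO at 96 h (38.6%), 0 in KO at 4 weeks (8.35%) and 1 in WT at 96 h (18.2%). With limma on log2(FPKM + 0.1) they were 3 in the step (0.18%), 1 in the joint test (0.694%) and 3 at 96 h (7.85%), and against baseline 4 in KO at 24 h (17%), 1 in KO at 7 days (4.79%), 1 in KO at 4 weeks (7.82%) and 2 in WT at 7 days (2.36%). Fitting each condition alone gave 4 at 30 h (0.804%) and 0 at 96 h (1.66%). Between 8 and 12 of the 34 genes were then not tested at baseline, 24 h, 96 h, 7 days and 4 weeks. Without the libraries of 96 h, 0 passed in the joint test (0.0214%) and 3 in KO at 7 days (7.45%). In WT, 2 then passed at 7 days (4.62%) and 1 at 4 weeks (1.98%). Without scaling 4 passed in the joint test (2.36%), and without the filter on low counts 0 passed in WT at 7 days (1.84%). The cause was not tested.

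The main tests did not use the replicate numbers as pairs. Between KO and WT libraries of the same condition and number, 8 of 21 pairs had a correlation over 0.1, from -0.31 to 0.31. Among the libraries of the other genotype at that condition, 23 of 45 libraries were closest to their own number. Only libraries of the same condition were compared, so the check cannot tell whether baseline libraries pair with later ones. With the replicate block 6 genes were called at 30 h (0.767%), 6 in the step (0.383%) and 7 at 96 h (13.6%). That fit called 1 in the joint test (1.01%) and 0 in WT at 7 days (3.14%).

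Leaving out 1 library gave between 0 and 6 calls at 30 h, 4 and 7 at 96 h, 0 and 15 in the step, and 0 and 4 in the joint test. Against baseline it gave 4 to 6 in KO at 24 h, 8 to 13 in KO at 96 h, 0 to 1 in KO at 7 days, 1 to 2 in KO at 4 weeks, 2 to 4 in WT at 96 h and 0 to 2 in WT at 7 days. Where 1 library was left in a group, it was assumed to vary like the other groups. At 96 h the lowest count, 4, came without KO replicate 3 or WT replicate 3. Baseline and 96 h levels of Fanci, Exo1, Eme1 and Rad51ap1 rest on few reads, and depth limits their fold changes.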
